A study of Mus musculus with 11 samples.

Results

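The genes described here are 10 factors and effectors of the integrated stress response, measured in C2C12 cells, an established mouse myoblast line. They were chosen by gene symbol: Atf4, Atf5, Atf3, Ddit3, Trib3, Chac1, Sesn2, Stc2, Fgf21 and Gdf15. All 10 were found among the 21677 genes counted over exons and among the 18824 counted over introns. Cells had received an adenovirus at a multiplicity of infection of 100, carrying under the U6 promoter either 1 hairpin against Zc3h10, a zinc finger protein gene, or a scrambled hairpin. Newly made RNA was tagged in confluent cultures with 300 µM 4-thiouridine (4sU) for 30 min and recovered through biotin, while a fraction of the same harvests served for total RNA. The 11 libraries form 4 groups. These are 4sU RNA with shZc3h10 (n = 3), 4sU RNA with scramble (n = 2), total RNA labelled shZc3h10 (n = 3) and total RNA labelled scramble (n = 3). Every group thus shares the cell line and the virus, and no group was left uninfected. Whether replicates are separate cultures is not stated, and p-values then reflect only how far these libraries scatter, possibly for technical reasons. In all 6 total RNA libraries the name of the count file carries the other hairpin than the label. Groups were kept as labelled, and every direction below holds for the labels. If the file names were right, each total RNA difference would have the other sign, and the comparison of 4sU with total RNA is therefore given both ways.

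The integrated stress response starts from kinases that sense amino acid shortage, unfolded proteins, double-stranded RNA or haem shortage and mitochondrial distress, and that phosphorylate the translation factor eIF2. General protein synthesis then falls while the mRNA of the transcription factor ATF4 is translated more, so that much of the control of ATF4 lies in translation and not in its mRNA level. ATF4 and its partners switch on genes for amino acid supply and for feedback, and in muscle with impaired mitochondria also the secreted hormones FGF21 and GDF15, known as mitokines.

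A short DNA element recognised by ATF4 with a C/EBP partner was looked for in the 250 bases before the start of each gene. The promoter sequences are from RefSeq (GRCm38.p6), and all 10 members matched, with 12 windows between them. The element was written TGATGNAA and searched on both strands, where the reverse strand reads TTNCATCA, with no other motif searched. It was found for 3 of the 10 members, Atf3, Chac1 and Fgf21, and for 3.91% of all 27025 genes in the table (3.45% of 32851 windows). All 3 matches read TTGCATCA, shown in capitals in these windows written 5′ to 3′ along the gene's strand. Every member window with a match is printed. Of these genes, Atf3 and Fgf21 were called in exons of both kinds of RNA, as given below, and Chac1 in total RNA only. Stc2 was also called in both kinds. Whether a match goes with these changes was not tested. No match was found for Stc2 and Gdf15, which had the largest falls in 4sU exons. Atf4, Atf5, Ddit3, Trib3 and Sesn2 had none either.
Atf3: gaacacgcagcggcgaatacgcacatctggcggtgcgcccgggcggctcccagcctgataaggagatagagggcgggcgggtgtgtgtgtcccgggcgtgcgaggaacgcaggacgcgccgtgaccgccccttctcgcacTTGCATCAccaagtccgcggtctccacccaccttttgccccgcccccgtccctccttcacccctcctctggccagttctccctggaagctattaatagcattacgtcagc
Chac1: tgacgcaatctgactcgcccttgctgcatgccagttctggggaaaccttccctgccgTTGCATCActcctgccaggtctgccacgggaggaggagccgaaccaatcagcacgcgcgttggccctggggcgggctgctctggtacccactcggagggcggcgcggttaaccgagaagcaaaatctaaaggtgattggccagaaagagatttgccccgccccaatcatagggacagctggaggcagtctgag
Fgf21: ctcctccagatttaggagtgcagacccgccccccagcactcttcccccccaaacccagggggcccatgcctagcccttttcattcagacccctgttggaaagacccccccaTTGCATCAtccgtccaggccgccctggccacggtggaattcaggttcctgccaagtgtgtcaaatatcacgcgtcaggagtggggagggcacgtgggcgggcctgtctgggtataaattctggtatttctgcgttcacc
The window of Atf3 lies at chr1:191183334-191183583 on the minus strand, with the match 110 to 103 bases before the start. The window of Chac1 lies at chr2:119350992-119351241 on the plus strand, with the match 193 to 186 bases before the start. The window of Fgf21 lies at chr7:45615491-45615740 on the minus strand, with the match 139 to 132 bases before the start. A match describes the letters of the window and is no evidence of binding.

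Exon counts summed to 10369374 to 19690198 in the libraries of 4sU RNA and to 31058706 to 54075687 in those of total RNA. Introns took 70.2% to 71.7% of the counts in 4sU libraries with shZc3h10 and 67.9% to 68.4% with scramble, and 10.7% to 13.8% and 15.3% to 21.9% in total RNA labelled the same ways. Zc3h10 itself was at a log2 fold change of −0.49 (SE 0.19; edgeR's adjusted p = 0.128) in 4sU exons and 1.04 (SE 0.30; edgeR's adjusted p = 0.0522) in total exons. In introns it was at −0.97 (SE 0.35; edgeR's adjusted p = 0.0842) in 4sU RNA and was called higher in total RNA (1.07, SE 0.26; edgeR's adjusted p = 0.0325), so in total RNA the targeted gene goes against the label. All 7 myoblast markers were detected in each group. Their summed level was 1123 to 1235 CPM (read counts scaled for library size) in 4sU RNA with shZc3h10 and 1932 to 2008 with scramble, and 3236 to 4019 against 1589 to 2315 CPM in total RNA. The summed markers of differentiating myocytes overlapped between hairpins (141 to 159 and 152 to 181 CPM in 4sU RNA, 150.2 to 197 and 122 to 164 in total RNA). The adipocyte markers summed to 399 to 462 CPM with shZc3h10 and 138 to 150.2 with scramble in 4sU RNA, and to 32.1 to 35.2 and 105 to 123 CPM in total RNA, mostly Lpl, with Cfd, Plin1 and Adipoq at 0 in some groups. Osteoblast markers summed to 130.1 to 204 CPM in 4sU libraries and 17.4 to 47.5 CPM in total RNA, macrophage markers to at most 27.9 and 5.24 CPM, and endothelial markers to at most 8.60 and 1.52 CPM. Intron share, myoblast markers and Lpl thus differed between hairpins in both kinds of RNA, and their part in the results below was not tested. In bulk RNA, fewer cells of a type and less RNA per cell cannot be told apart.

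In newly made RNA, secreted effectors and Atf3 were lower with shZc3h10, while Atf4 itself was close to level. Of the 10 members, all of which passed the filter on low counts, 4 fell and 0 rose by the quasi-likelihood test of edgeR, with p-values adjusted over all genes tested and called below 0.05. Stc2, Gdf15, Atf3 and Fgf21 fell, by 3.27-, 3.25-, 2.58- and 2.07-fold. Over all 13637 genes tested in 4sU exons, 10.4% were called, and 4.69% were called lower. The median log2 fold change of the members was −0.50, against −0.00 over all genes. At an unadjusted p below 0.05 there were 6 members, all lower, against 22.8% of all genes, and DESeq2 called 3 lower and 0 higher, with 4.78% of all genes called lower.

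**Figure D1:**
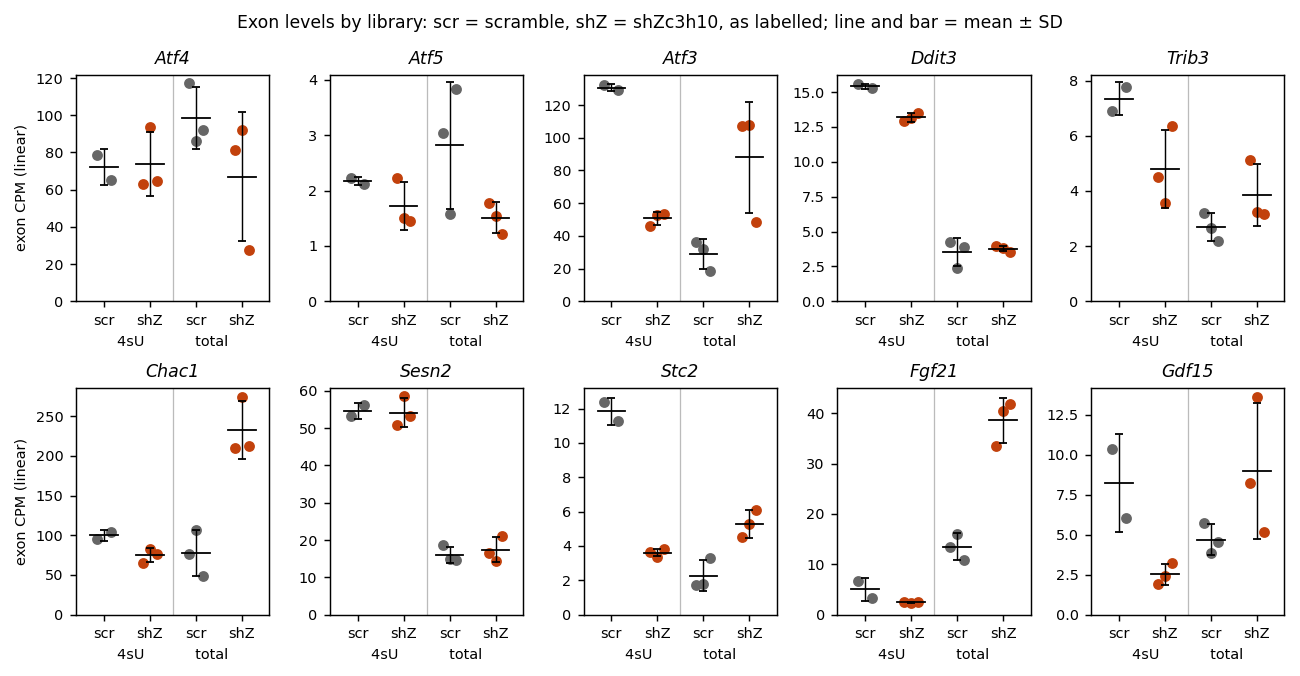
Exon level of each of the 10 members in every library, in CPM on a linear axis from 0, by kind of RNA and hairpin as labelled; points are libraries and lines with bars are means ± SD. In 4sU RNA the shZc3h10 points of Atf3, Stc2, Gdf15 and Fgf21 lie under the scramble points, and in total RNA those of Atf3, Stc2, Chac1 and Fgf21 lie above them.

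Among the transcription factors, Atf3, a stress-induced factor that can repress or activate its targets, changed most. Its exons stood at 132 and 129 CPM in the scramble libraries of 4sU RNA and at 45.9, 52.6 and 53.5 CPM in those with shZc3h10. The groups were far apart, with every shZc3h10 library under the lower scramble library. The log2 fold change was −1.37 (SE 0.14; edgeR's adjusted p = 1.55e-06). Atf4, the central factor, stood at 78.9 and 65.4 CPM with scramble and 63.2, 93.6 and 64.5 CPM with shZc3h10. Its groups overlapped, and its log2 fold change was 0.03 (SE 0.17; edgeR's adjusted p = 0.956). Atf5, a related factor that is translated under the same control and is tied to the mitochondrial unfolded protein response, had low levels of 1.45 to 2.22 CPM that overlapped between the groups (−0.33, SE 0.40). Ddit3, which encodes the pro-apoptotic factor CHOP, stood at 15.5 and 15.3 CPM with scramble and at 12.9, 13.1 and 13.5 CPM with shZc3h10. These groups did not overlap, yet the log2 fold change of −0.23 (SE 0.18; edgeR's adjusted p = 0.517) missed the threshold.

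None of the 3 effectors that act inside the cell, Trib3, Chac1 and Sesn2, passed the test in 4sU exons. Trib3, a pseudokinase that restrains ATF4 and CHOP, stood at 6.91 and 7.76 CPM with scramble and 4.52, 3.56 and 6.34 CPM with shZc3h10 (−0.59, SE 0.26; edgeR's adjusted p = 0.182). Chac1, which degrades glutathione, stood at 95.2 and 104 CPM with scramble and at 65.0, 83.0 and 76.7 CPM with shZc3h10. Its log2 fold change of −0.41 (SE 0.15; edgeR's adjusted p = 0.0846) was not called, but without shZc3h10 library 2 it was (edgeR's adjusted p = 0.0324). Sesn2, a leucine sensor that restrains mTORC1, had 53.2 and 56.2 CPM with scramble and 50.8 to 58.6 CPM with shZc3h10, which overlap (−0.01, SE 0.15).

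All 3 members that encode secreted proteins fell in newly made RNA. Stc2, the gene of the glycoprotein hormone stanniocalcin 2, stood at 12.4 and 11.3 CPM with scramble and at 3.66, 3.38 and 3.79 CPM with shZc3h10. Its libraries were tight within each group and did not overlap, at a log2 fold change of −1.71 (SE 0.23; edgeR's adjusted p = 3.26e-05). Gdf15, a hormone that lowers appetite through the hindbrain, stood at 10.4 and 6.07 CPM with scramble and at 1.94, 2.44 and 3.24 CPM with shZc3h10. The log2 fold change was −1.70 (SE 0.30; edgeR's adjusted p = 0.000618), with scramble library 1 well above scramble library 2. Fgf21, a hormone of fasting and mitochondrial stress, stood at 6.66 and 3.37 CPM with scramble and at 2.51, 2.34 and 2.48 CPM with shZc3h10. Its log2 fold change of −1.05 (SE 0.33; edgeR's adjusted p = 0.0452) lay close to the threshold, and the spread lay between the scramble libraries. Without scramble library 1 it was −0.46 (edgeR's adjusted p = 0.732), and edgeR's adjusted p was 0.0792, 0.0645 and 0.100 without shZc3h10 library 1, 2 or 3. Gdf15 was at −1.25 (edgeR's adjusted p = 0.0724) without scramble library 1, and DESeq2 gave Fgf21 an adjusted p of 0.0785. With all 11 libraries in 1 fit, edgeR's adjusted p of Fgf21 was 0.0889. The groups did not overlap for 7 of the 10 members, all lower, against 18.9% of all genes tested that were lower without overlap.

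In total RNA the members that were called stood higher, not lower, under the shZc3h10 label. Of the 10, 4 were higher and 0 lower where the label is shZc3h10, namely Atf3, Chac1, Fgf21 and Stc2, by 2.34- to 3.05-fold. Over the 13846 genes tested in total exons, 6.42% were called and 3.06% were called higher. The groups of these 4 members did not overlap, as for 13.9% of all genes tested that were higher without overlap. The members' median log2 fold change was 0.73, against −0.10 over all genes. At an unadjusted p below 0.05 there were 6 members, of which Atf5 had a negative difference, against 26.9% of all genes. DESeq2 called 5 higher and 0 lower, with 7.92% of all genes called higher.

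Atf3 stood at 36.1, 31.9 and 18.4 CPM in the libraries labelled scramble and at 107, 108 and 48.6 CPM in those labelled shZc3h10. Library 3 of each label was the lowest, and the groups did not overlap (log2 fold change 1.61, SE 0.35; edgeR's adjusted p = 0.0165). Atf4 stood at 117, 86.3 and 92.0 CPM under the scramble label and at 81.5, 92.0 and 27.4 CPM under the shZc3h10 label. The groups overlapped, and shZc3h10 library 3 stood far below the other libraries. The log2 fold change was −0.56 (SE 0.37; edgeR's adjusted p = 0.350), and −0.09 without that library. Atf5 stood at 1.58 to 3.83 CPM and 1.22 to 1.78 CPM under the scramble and shZc3h10 labels (−0.90, SE 0.37; edgeR's adjusted p = 0.137). Without scramble library 2, the lowest of its group, Atf5 was called lower (−1.11, edgeR's adjusted p = 0.0332). Ddit3 overlapped between the labels at 2.37 to 4.24 and 3.55 to 3.94 CPM (0.10, SE 0.31).

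Of these 3 effectors, only Chac1 was called in total exons. It stood at 76.2, 107 and 48.9 CPM under the scramble label and at 209.8, 274 and 212 CPM under the shZc3h10 label. Every library labelled shZc3h10 had more than the highest scramble library (1.59, SE 0.32; edgeR's adjusted p = 0.0115). Trib3 overlapped, at 2.19 to 3.22 CPM and 3.16 to 5.14 CPM (0.52, SE 0.32; edgeR's adjusted p = 0.318). Sesn2 also overlapped, at 14.6 to 18.6 CPM and 14.4 to 21.2 CPM (0.12, SE 0.26).

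Of the hormones, Fgf21 stood at 13.5, 16.1 and 10.8 CPM under the scramble label and at 33.6, 40.4 and 41.9 CPM under the shZc3h10 label. The groups were well apart (1.52, SE 0.26; edgeR's adjusted p = 0.00485). The call held without any of the 6 libraries but not in the fit blocked on replicate number (edgeR's adjusted p = 0.0526). Stc2 stood at 1.70, 1.77 and 3.29 CPM under the scramble label and at 4.49, 5.28 and 6.12 CPM under the shZc3h10 label. These groups did not overlap (1.22, SE 0.34; edgeR's adjusted p = 0.0436). Gdf15 stood at 5.73, 3.85 and 4.52 CPM against 8.22, 13.6 and 5.17 CPM, with shZc3h10 library 3 inside the scramble range (0.94, SE 0.35; edgeR's adjusted p = 0.108).

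The calls in total RNA rested on few libraries. In the fit blocked on replicate number, 1 of the 4 members stayed called, Atf3. By edgeR's adjusted p, Stc2 was lost without shZc3h10 library 1 (0.0712), 2 (0.0868) or 3 (0.0874) and without scramble library 1 (0.180) or 3 (0.0556). Atf3 was lost without shZc3h10 library 1 (0.0508) and without scramble library 1 (0.0603) or 3 (0.122), and Chac1 without scramble library 1 (0.0930) or 3 (0.0736). Without shZc3h10 library 3, Gdf15 was called higher at 1.31 (edgeR's adjusted p = 0.0372). DESeq2 also called Gdf15 (adjusted p = 0.0460), as did edgeR with all 11 libraries in 1 fit (adjusted p = 0.0337). In all, 2 members were called without shZc3h10 library 1, and 1, Fgf21, without scramble library 1 or 3.

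**Figure D2:**
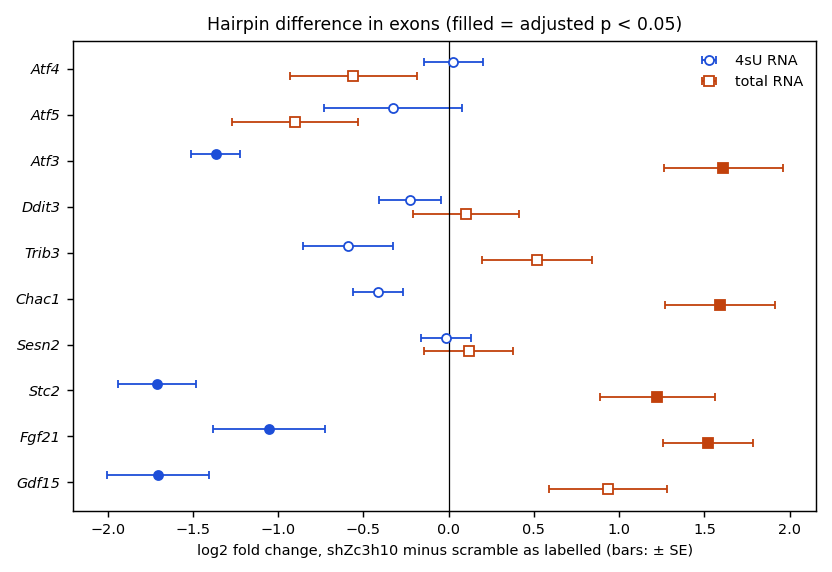
Log2 fold change of each member's exons, shZc3h10 minus scramble as labelled, in 4sU RNA (circles) and total RNA (squares), with bars of ± SE; filled symbols have an adjusted p below 0.05 by edgeR. Atf3, Stc2, Gdf15, Fgf21 and Chac1 lie left of 0 in 4sU RNA and right of 0 in total RNA, while Sesn2 and Ddit3 lie near 0 in both. With the total RNA signs turned as in the file names, the squares would be mirrored about 0.

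Whether the hairpin difference itself was the same in the 2 kinds of RNA depended on which hairpin the total RNA libraries hold. As labelled it was not the same for 5 of the 10 members, and with the hairpins turned as in the file names no member was called. In 1 fit of all 11 libraries, the difference in 4sU exons minus that in total exons was tested for 15046 genes, of which 14.1% were called and 8.56% called lower. It was called lower for 5 members and higher for 0. Atf3 had −3.15 (SE 0.43; edgeR's adjusted p = 0.00011) and Stc2 −3.07 (SE 0.42; edgeR's adjusted p = 0.000115). Gdf15 had −2.81 (SE 0.52; edgeR's adjusted p = 0.00158), Fgf21 −2.72 (SE 0.39; edgeR's adjusted p = 0.000164) and Chac1 −2.16 (SE 0.38; edgeR's adjusted p = 0.000975). With the labels kept, these 5 stayed called in each of the 4 other settings and without each of the 11 libraries. The main fit had no block and took the libraries as independent. Both kinds of RNA came from the same harvests, and the labels do not say which libraries are paired. Trib3 just missed the threshold at −1.27 (SE 0.43; edgeR's adjusted p = 0.0577), and it was called without total shZc3h10 library 3 (edgeR's adjusted p = 0.0314), with no filter on low counts (edgeR's adjusted p = 0.0483) and by DESeq2 (adjusted p = 0.0451). Atf4 (0.41, SE 0.50), Atf5 (0.42, SE 0.54), Ddit3 (−0.48, SE 0.36) and Sesn2 (−0.28, SE 0.29) were not called in any setting. DESeq2 called 6 lower and 0 higher, with 9.78% of all genes called lower, and edgeR's unadjusted p was below 0.05 for 6, against 28.4% of all genes. Zc3h10 had the same sign in this test (−1.68, SE 0.38; edgeR's adjusted p = 0.00677).

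With the hairpins of the total RNA libraries turned as in the file names, a setting added after the data had been seen, edgeR called 0 of the 10 members and 0 of the 15046 genes (0% of all genes) in the same test. The unadjusted p was below 0.05 for 2 members and for 1707 genes. The differences of 4sU RNA and turned total RNA then stood side by side at −1.37 and −1.61 for Atf3, −1.71 and −1.22 for Stc2, −1.70 and −0.94 for Gdf15 and −1.05 and −1.52 for Fgf21. As 4sU minus turned total, Atf3 had 0.35 (SE 0.43), Stc2 −0.42 (SE 0.42), Gdf15 −0.66 (SE 0.52) and Fgf21 0.55 (SE 0.39). The 2 members with an unadjusted p below 0.05 were Chac1 (1.27, SE 0.38; edgeR's adjusted p = 0.361) and Atf5 (−1.14, SE 0.54; edgeR's adjusted p = 0.436). Of the others, Atf4 had −0.42 (SE 0.50), Sesn2 0.19 (SE 0.29), Ddit3 −0.04 (SE 0.36) and Trib3 0.01 (SE 0.43). Zc3h10 stood at −0.49 in 4sU RNA and at −1.04 in turned total RNA.

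Introns, which stand for RNA not yet spliced, gave calls for 2 members, Stc2 and Atf3, in each kind of RNA. Fgf21 had 0 to 7 intron counts per library and was not tested, and Atf4, Gdf15 and Atf5 had at most 33, 53 and 58. In 4sU introns, where 15.5% of 13553 genes were called and 6.57% called lower, 2 of 9 members fell and 0 rose. Stc2 introns stood at 21.8 and 26.0 CPM with scramble and at 7.50, 8.22 and 5.66 CPM with shZc3h10. The groups were far apart (−1.75, SE 0.17; edgeR's adjusted p = 2.68e-05). Atf3 introns stood at 26.4 and 36.5 CPM with scramble and at 18.1, 15.8 and 16.4 CPM with shZc3h10, also without overlap (−0.91, SE 0.15; edgeR's adjusted p = 0.00122). The other 7 were all on the negative side, from −0.13 for Chac1 to −1.41 for Gdf15, and 3 of them had an unadjusted p below 0.05: Gdf15 (edgeR's adjusted p = 0.113), Atf5 (edgeR's adjusted p = 0.152) and Ddit3 (edgeR's adjusted p = 0.110). The called members Stc2 and Atf3 had such a p as well. Of all genes, called ones included, 29.3% had it. Atf4 was at −0.73 (SE 0.67), Sesn2 at −0.31 (SE 0.23) and Trib3 at −0.22 (SE 0.27). DESeq2 also called 2 lower and 0 higher, with 7.6% of all genes called lower. Ddit3 was called without shZc3h10 library 3 (edgeR's adjusted p = 0.0305).

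In introns of total RNA, where 5.18% of 13877 genes were called and 3.08% called higher, the same 2 members were higher under the shZc3h10 label, and 0 lower. Stc2 introns stood at 8.02, 10.1 and 9.23 CPM under the scramble label and at 26.0, 32.2 and 24.8 CPM under the shZc3h10 label. The call (1.60, SE 0.28; edgeR's adjusted p = 0.00511) held without any of the 6 libraries. Atf3 introns stood at 28.0, 25.0 and 31.5 CPM under the scramble label and at 53.7, 52.9 and 55.7 CPM under the shZc3h10 label (0.94, SE 0.21; edgeR's adjusted p = 0.0197). By edgeR's adjusted p, Atf3 was lost without shZc3h10 library 1 (0.0837) or 2 (0.0947) and without scramble library 1 (0.133). Of the others, Gdf15 was at 1.03 (SE 0.58), Ddit3 at 0.45 (SE 0.19), Chac1 at 0.39 (SE 0.59), Trib3 at 0.31 (SE 0.44), Sesn2 at −0.38 (SE 0.41), Atf4 at −0.46 (SE 0.66) and Atf5 at −0.98 (SE 0.58), and none passed. The unadjusted p was below 0.05 for 3 members, against 17.9% of all genes, and DESeq2 called 2 higher and 0 lower, with 5.12% of all genes called higher. Ddit3 had 602 to 3044 intron counts but only 75 to 308 exon counts per library, and in GENCODE M21 it overlaps Mars on the other strand. Atf5 overlaps Il4i1 and Nup62, and Atf3 the small RNA gene Gm24748, also on the other strand, so without known strand use their counts are uncertain. Sesn2 overlaps Gm12981 on its own strand, where strand use would not separate them.

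**Figure D3:**
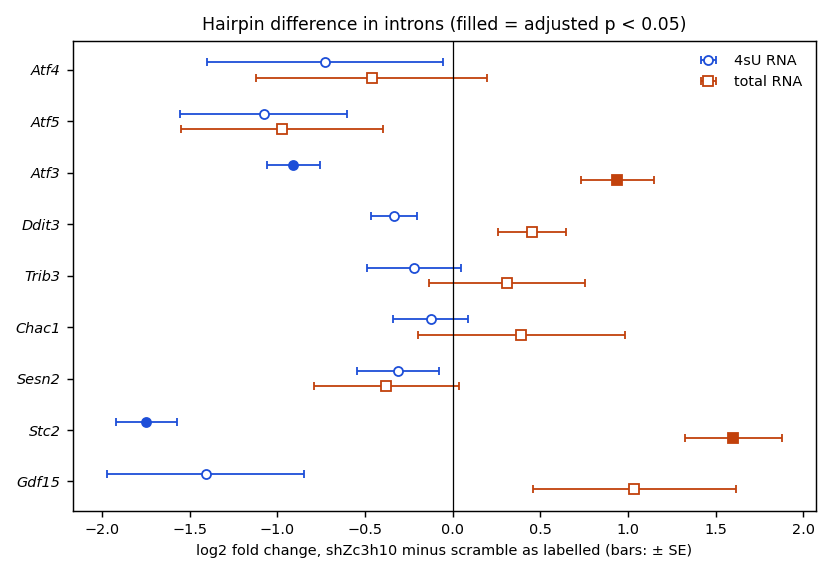
Log2 fold change of the introns of the 9 members tested, shZc3h10 minus scramble as labelled, in 4sU RNA (circles) and total RNA (squares), with bars of ± SE; filled symbols have an adjusted p below 0.05 by edgeR. Only Stc2 and Atf3 are filled, lower in 4sU RNA and higher in total RNA.

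No member was called when the hairpin difference in exons was set against that in introns of the same libraries. In 4sU RNA 0.149% of 14726 genes were called, and in total RNA 0.0245% of 16320, so this test made few calls for any gene. Of the 10 members, edgeR called 0 in each kind of RNA. Fgf21, with its 0 to 7 intron counts, was at −0.81 (SE 1.23) in 4sU RNA and 0.32 (SE 0.81) in total RNA. So few counts cannot show a small difference. The unadjusted p was below 0.05 for 1 member in each, near the share over all genes, 7.96% in 4sU RNA and 14.8% in total RNA. In 4sU RNA that was Atf3, whose exons differed by 0.48 more on the log2 scale than its introns did (−0.48, SE 0.17; edgeR's adjusted p = 0.374). In total RNA it was Chac1 (1.29, SE 0.42; edgeR's adjusted p = 0.162), which was called without scramble library 2 (edgeR's adjusted p = 0.0438). Stc2 was at 0.05 (SE 0.27) in 4sU RNA and −0.35 (SE 0.39) in total RNA. The other 7 ranged in 4sU RNA from −0.40 for Trib3 and −0.29 for Chac1 through Gdf15, Ddit3 and Sesn2 to 0.69 for Atf4 and 0.71 for Atf5. In total RNA they ranged from −0.33 for Ddit3 and −0.20 for Gdf15 through Atf4, Atf5 and Trib3 to 0.46 for Sesn2 and 0.62 for Atf3.

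Averaged over both hairpins, the members also differed in how their exon level in newly made RNA compared with total RNA. Fgf21 was 11.1-fold lower in 4sU RNA than in total RNA, by CPM scaled over all 11 libraries. Of 15046 genes 71% were called in this comparison, 35.1% higher in 4sU RNA and 35.9% lower, so that a call as such is no mark of the members. Among them 2 were higher in 4sU RNA and 5 lower, with a median of −0.49 against −0.01 over all genes. Fgf21 (−3.47, SE 0.22; edgeR's adjusted p = 6.33e-10) stood at 1.80 ± 0.0844 CPM (SD, n = 3) and 3.78 ± 1.79 CPM (n = 2) in 4sU RNA with shZc3h10 and scramble. In total RNA it stood at 51.5 ± 5.47 and 16.6 ± 3.27 CPM (n = 3 each) under the same labels. Chac1 (−1.42, SE 0.20), Gdf15 (−1.29, SE 0.27), Atf4 (−0.95, SE 0.25) and Atf5 (−0.88, SE 0.27) were also lower in 4sU RNA. Ddit3 (1.18, SE 0.18) and Sesn2 (0.92, SE 0.14) were higher there. Atf3 (−0.10, SE 0.22), Trib3 (0.11, SE 0.22) and Stc2 (0.13, SE 0.21) were not called. Here too the fit took libraries from shared harvests as independent. For Atf3, Stc2, Fgf21, Gdf15 and Chac1 this mean covers hairpin differences of opposite sign by label, as the levels of Fgf21 show. Stc2 stood at 2.66 ± 0.185 and 8.91 ± 0.701 CPM in 4sU RNA with shZc3h10 (n = 3) and scramble (n = 2), and at 7.05 ± 0.889 and 2.80 ± 1.20 CPM in total RNA (n = 3 each).

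**Figure D4:**
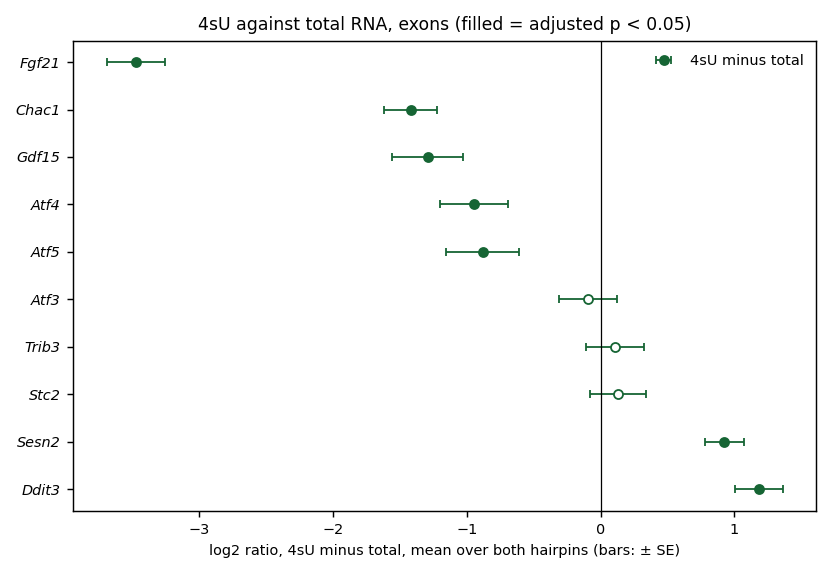
Log2 ratio of 4sU RNA to total RNA for the exons of each member, averaged over both hairpins, with bars of ± SE; filled points have an adjusted p below 0.05 by edgeR. Fgf21 stands apart on the left at −3.47, and Sesn2 and Ddit3 are the 2 filled points on the right.

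The rest of the pathway was read from 7 lists of genes, of which the one for amino acid supply held the most calls. Like the members, the lists were chosen with earlier results of these data known, so their calls are no independent evidence. Of 20 genes that ATF4 is known to drive for amino acid synthesis, transport and the folate cycle, 8 fell and 1 rose in 4sU exons, by edgeR and by DESeq2, with a median of −0.44. Over all genes 4.69% were called lower there by edgeR, and 10.4% in either direction, which holds for each list below. Psat1, of serine synthesis, fell from 505 ± 6.54 CPM (n = 2) to 242 ± 28.2 CPM (n = 3), by 1.06 on the log2 scale (SE 0.14; edgeR's adjusted p = 2.11e-05). Slc1a5, a glutamine transporter, fell by 0.85 (SE 0.16; edgeR's adjusted p = 0.000896). The exception was Cbs, of cysteine synthesis, which rose from a level near 0 (0.197 ± 0.136 CPM, n = 2) to 2.02 ± 0.527 CPM (n = 3), at 3.40 (SE 0.66; edgeR's adjusted p = 0.00161). In total exons 4 of the 20 were higher under the shZc3h10 label and 1 lower, with a median of 0.54, while DESeq2 called 7 higher and 1 lower. Over all genes 3.06% were called higher by edgeR and 7.92% by DESeq2, again for each list below. There Psat1 stood at 3197 ± 175 CPM against 924 ± 381 CPM (n = 3 each; 1.79, SE 0.38; edgeR's adjusted p = 0.0144). Slc7a1, a transporter of arginine and lysine, was at 1.35 (SE 0.35; edgeR's adjusted p = 0.0345), and Cbs was at −1.76 (SE 0.41; edgeR's adjusted p = 0.0223).

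Upstream of ATF4, the 16 genes of eIF2, its kinases and its exchange factor had 0 calls in 4sU exons (1 with an unadjusted p below 0.05 by edgeR, and 0 called by DESeq2), with a median of −0.05. In total exons 2 of them were higher under the shZc3h10 label and 0 lower (DESeq2 called 4 and 0). These were the exchange factor subunits Eif2b5 (1.15, SE 0.30; edgeR's adjusted p = 0.0359) and Eif2b4 (1.11, SE 0.26; edgeR's adjusted p = 0.0226). Of 10 tested dimer partners and co-regulators of ATF4, 1 rose and 2 fell in 4sU exons. Maf rose by 0.90 (SE 0.17; edgeR's adjusted p = 0.00157), while the AP-1 genes Jund (−1.43, SE 0.33; edgeR's adjusted p = 0.00728) and Jun (−0.76, SE 0.15; edgeR's adjusted p = 0.00228) fell. Jund was low, at 9.72 ± 6.09 CPM with scramble (n = 2) and 3.72 ± 1.33 CPM with shZc3h10 (n = 3). Its scramble libraries were thus wide apart. In total exons Cebpa (−2.36, SE 0.54; edgeR's adjusted p = 0.0208) and Maf (−1.44, SE 0.35; edgeR's adjusted p = 0.0270) were lower, and 0 were higher. DESeq2 called 3 lower and 0 higher. Over all 13846 genes tested there, edgeR called 465 lower. Cebpa was near the floor, at 0.406 ± 0.180 CPM under the shZc3h10 label and 2.06 ± 1.48 CPM under the scramble label (n = 3 each). Cebpb had 0 to 10 exon counts per library and was not tested.

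Of 13 other ATF4 or CHOP targets, 2 fell and 0 rose in 4sU exons: the cell cycle inhibitor gene Cdkn1a (−0.87, SE 0.15; edgeR's adjusted p = 0.000405) and the autophagy receptor gene Sqstm1 (−0.54, SE 0.13; edgeR's adjusted p = 0.00866). Cdkn1a was higher in total exons under the shZc3h10 label (1.32, SE 0.29; edgeR's adjusted p = 0.0166), the only call of that list there by edgeR. DESeq2 called 1 higher and 1 lower in total exons, and 3 lower and 0 higher in 4sU exons. The 13 endoplasmic reticulum chaperone genes, which belong to the ATF6 and XBP1 arms of the unfolded protein response, had 4 lower and 0 higher in 4sU exons. Hyou1 (−0.61, SE 0.16; edgeR's adjusted p = 0.0147), Dnajb9 (−0.59, SE 0.18; edgeR's adjusted p = 0.0447) and Creld2 (−0.57, SE 0.17; edgeR's adjusted p = 0.0289) were among them. In total exons edgeR called 0 of these 13 (2 with an unadjusted p below 0.05), while DESeq2 called 2 higher. The 10 mitochondrial chaperones and proteases had 0 calls in 4sU exons and in total exons by edgeR and by DESeq2 (2 and 1 with an unadjusted p below 0.05 by edgeR). The receptors of FGF21 and GDF15 had 0 calls among 6 tested genes in 4sU exons and 5 in total exons by edgeR and DESeq2 (0 and 1 with an unadjusted p below 0.05 by edgeR). Gfral, the receptor of GDF15, had at most 3 counts in any library.

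**Figure D5:**
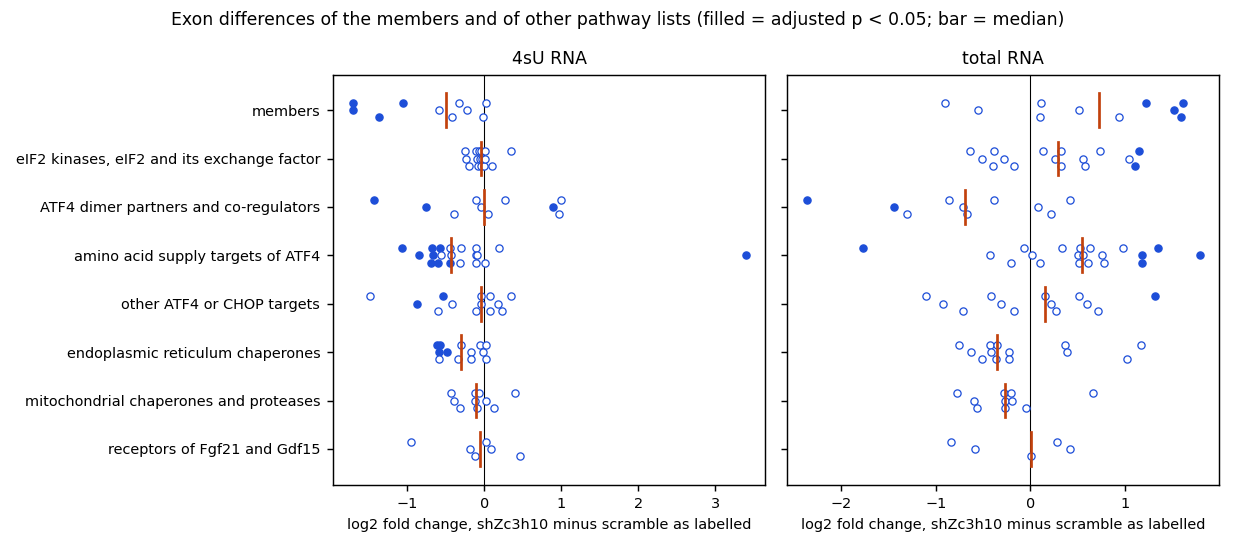
Log2 fold change of exons, shZc3h10 minus scramble as labelled, for the members and 7 other lists of the pathway, in 4sU RNA (left) and total RNA (right); each circle is a gene, filled where edgeR's adjusted p is below 0.05, and the vertical bar is the list's median. The medians of the members and of the amino acid supply genes lie left of 0 in 4sU RNA and right of 0 in total RNA.

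Among themselves, the members did not vary as 1 block over the libraries. After the mean of each kind of RNA was taken off, 34 of the 45 pairs of members had a positive Pearson r of log2 CPM over the 11 libraries, with a median of 0.40. The range ran from −0.70 for Atf5 with Chac1 to 0.91 for Fgf21 with Chac1. These libraries share the hairpin difference, which enters every r. The genes most like Fgf21 by this measure were Pan2 (0.98), Eno1 (0.98) and Shmt2 (0.97, a gene of the folate cycle). For Gdf15 they were Phgdh (0.97), Ccnb1 (0.95) and Mfsd6 (0.95), and for Atf4 Clta (0.97), Cxcr4 (0.97) and Pold4 (0.96).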

How the data were processed

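RNA of 11 C2C12 libraries, 5 of 4sU RNA and 6 of total RNA, was available as 22 deposited tables of raw read counts per gene, 1 over exons and 1 over introns for each library, per the file headers. Reads were aligned to mm9 with TopHat2 2.0.8 and TopHat, per the submitters' processing notes; which program counted, with which annotation and on which strand, is not given in the sources used here. Each kind of RNA was normalised by trimmed mean of M values and fitted over all genes with edgeR 4.0.16 in R 4.3.3 after filterByExpr (minimum count 10, minimum total 15), with Benjamini-Hochberg adjustment and calls below 0.05. Standard errors came from the F statistic. CPM were computed within a kind of RNA, and over all 11 libraries where 4sU and total RNA were set side by side. Exons against introns were fitted with the library as a block, each part normalised alone. Alternatives were size factors by relative log expression, DESeq2 1.42.0 (not for exons against introns), no filter, a replicate block, all 11 libraries in 1 fit, leaving out each library and, added after seeing the data, the hairpins of total RNA turned as in the file names. The scripts were tested on simulated data. Replicates differed by more than sampling noise (chi-square per degree of freedom 10.1 to 459), so none was merged. The spread between libraries, which SE covers, sets the precision.

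All 10 members are named in each comparison of exons and in exons against introns. The 9 with enough intron counts are named in those of introns alone. From each other list up to 3 called genes of largest change are named in 4sU exons and in total exons. The members and lists were chosen with earlier results of these data known. The symbols Dele1, Gcn1, Ero1a, Mymk, Bglap1 and Emr1 of these lists matched no row of the tables. No sequence of a protein is shown.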

Additional observations from a re-analysis of the deposited data

Results flagged for a closer look

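With the libraries kept as labelled, the hairpin difference of 5 members in 4sU exons was not the same as in total exons, by edgeR's test of that difference over all 11 libraries. On the log2 scale, as 4sU minus total, it was −3.15 for Atf3, −3.07 for Stc2, −2.81 for Gdf15, −2.72 for Fgf21 and −2.16 for Chac1. Each of the 5 had a negative difference in 4sU RNA and a positive one in total RNA by label, and not each of these was called on its own. Zc3h10 differed in the same way (−1.68, SE 0.38), and the file names of the total RNA libraries give the other hairpin. With the hairpins turned as in the file names, edgeR called 0 of the 10 members and 0 of 15046 genes in this test (2 and 1707 with an unadjusted p below 0.05), with Atf3 at 0.35, Stc2 at −0.42, Gdf15 at −0.66, Fgf21 at 0.55 and Chac1 at 1.27.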

How the results depend on the processing

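Of the single-member values, 307 kept their direction and their side of the threshold under another setting, 7 lost the call, 6 gained one and 5 changed sign. With 1 library left out the counts were 492, 18, 6 and 23. As labelled, the 5 members whose hairpin difference differs between 4sU and total RNA, and Atf3 and Stc2 in 4sU exons and introns, kept their calls throughout. The labels do not say that replicate numbers pair libraries, and same-numbered libraries correlated in their deviations from group means by −0.12 and −0.17 in 4sU exons, 0.24, −0.21 and −0.22 in total exons, 0.04 and 0.26 in 4sU introns and −0.09, −0.14 and −0.49 in total introns. Between 4sU and total exons of the same number they correlated by 0.10, 0.03 and −0.06 with shZc3h10 and by 0.17 and 0.31 with scramble. With a replicate block, genes called were 809 in 4sU exons, 100 in total exons, 217 in total introns, 55 for exons against introns of 4sU RNA and 1 for those of total RNA, and members called were 1 in total exons and 1 in total introns. In the block, Fgf21 in 4sU exons had an adjusted p of 0.134, and Chac1, Fgf21 and Stc2 in total exons had 0.0632, 0.0526 and 0.105 by edgeR. Atf3 in total introns had 0.0846, and Ddit3 in 4sU introns was called at 0.0306; the block changed no other member's call. DESeq2 called 1877 genes in total exons (1096 higher and 781 lower, against 424 and 465 by edgeR) and 1260 in total introns. With all 11 libraries in 1 fit, 296 genes were called in 4sU exons (193 higher and 103 lower, against 772 and 640), 817 in 4sU introns, 2711 in total exons (1776 and 935) and 1628 in total introns (725 and 903, against 427 and 292). The replicate block gave 1277 higher and 617 lower in 4sU introns, against 1213 and 890. With no filter, 1591 genes were called in total exons, and 128 and 165 for exons against introns in 4sU and total RNA. The cause of these moves was not tested.

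With the total RNA hairpins turned as in the file names, a setting chosen after seeing the data and left out of the counts above, members and genes called for the difference between 4sU and total RNA were 0 and 0. In the fit of this setting Atf3 was at 0.352, Chac1 at 1.27, Fgf21 at 0.553 and Atf4 at −0.421. Atf5 was at −1.14, Sesn2 at 0.185 and Trib3 at 0.0144.

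Under the other settings signs turned for members that were not called. Atf4 in 4sU exons was at −0.0054 with all 11 libraries in 1 fit. For exons against introns, Stc2 in 4sU RNA was at −0.16 and Atf4 in total RNA at 0.029 in the replicate block, and Atf4 and Atf5 in total RNA were at 0.062 and 0.087 with the other size factors. With 1 library left out, members called ranged from 2 to 4 in 4sU exons, 1 to 5 in total exons, 1 to 2 in total introns and 0 to 1 for exons against introns in total RNA. Genes called ranged from 724 to 1733 in 4sU exons, 935 to 2586 in 4sU introns, 126 to 2588 in total exons, 217 to 1048 in total introns and 1029 to 3246 for the difference between kinds of RNA. For exons against introns they ranged from 10 to 83 in 4sU RNA and from 0 to 857 in total RNA. The lowest count in 4sU exons and introns came without scramble library 1, and in total exons the lowest without scramble library 3 and the highest without scramble library 2. Values that changed sign without 1 library ranged from −0.17 to 0.17 for Atf4 and −0.063 to 0.040 for Sesn2 in 4sU exons, −0.042 to 0.28 for Ddit3 in total exons and −0.13 to 0.63 for Chac1 in total introns. In 4sU against total RNA they ranged from −0.25 to 0.0034 for Atf3 and −0.022 to 0.24 for Trib3. For exons against introns in 4sU RNA they ranged from −5.58 to 0.92 for Fgf21, −0.66 to 0.18 for Gdf15 and −0.15 to 0.25 for Stc2. In total RNA they ranged from −0.31 to 0.39 for Atf4, −0.30 to 0.22 for Atf5, −0.47 to 0.93 for Fgf21, −0.50 to 0.085 for Gdf15 and −0.50 to 0.042 for Stc2. Intron counts of Fgf21, Atf4, Gdf15 and Atf5 are too few to show a small difference.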
